A study of Mus musculus with 12 samples.

Results

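The 10 genes described here make, load or control MHC class II, the surface complex with which macrophages, dendritic cells and B cells show peptides from engulfed proteins to CD4+ T cells. They are *H2-Aa*, *H2-Ab1*, *H2-Eb1*, *H2-DMa*, *H2-DMb1*, *H2-DMb2*, *H2-Oa*, *Cd74*, *Ciita* and *Ctss*, and they were chosen by symbol as 10 of the 48526 rows of the count table. In the GRCm38 annotation, 7 of the 10 genes lie on chromosome 17 between 34092340 and 34316674, with *Cd74* on chromosome 18, *Ciita* on 16 and *Ctss* on 3. All 10 had at least 10 counts in at least 3 libraries and entered the test. RNA-seq was done on bone marrow-derived macrophages (BMDMs) from 3 female C57Bl/6J mice with no engineered allele named in the labels, grown in macrophage colony-stimulating factor, which all groups share, to day 7. Each mouse gave an untreated culture and cultures that received 100 pg/mL IL-4, 100 ng/mL Wnt3a or both for 16 hr. The labels give no age for these mice, and the study's methods give an age range for bone marrow donors in general.

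The Wnt3a and Wnt3a+IL4 columns of a mouse share reads. In all 48526 genes of every mouse the first was at least as high as the second and at most 2 times as high, so each pair of columns was solved for a pair of parts. The part called the difference is the Wnt3a column minus the Wnt3a+IL4 column, and the part called the remainder is the Wnt3a+IL4 column minus the difference. Both parts come from cells that received Wnt3a, and the labels do not settle which of them also received IL-4. In the paper's qPCR, Wnt3a alone left *Arg1* unaltered, and Wnt3a with IL-4 raised it above IL-4 alone. *Arg1* had 0, 1 and 0 counts in the difference and 402, 97 and 114 in the remainder. Among 13 genes known to respond to IL-4, 10 were higher in the remainder than in the difference (2.87% of all genes) and 0 lower (2.38%). The 13 were chosen with earlier results of these data known. *Retnla*, which is among them, had 535 to 781 counts with IL-4 alone and at most 1 in any library of either part. The assignment itself was not tested. Every group then had 3 libraries, 1 per mouse, with 13342492 to 17453377 counts each. Levels below are CPM, counts scaled to a common library size after TMM normalization, and comparisons between genes use RPKM, which also divides by the length of all annotated exons of a gene.

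MHC class II is a pair of an alpha and a beta chain, which in these mice is H2-A (from *H2-Aa* and *H2-Ab1*), since C57Bl/6 mice carry a defective alpha chain gene for H2-E. New pairs bind the invariant chain Cd74, which fills the groove and guides the complex to endosomes, where cathepsin S (*Ctss*) trims it and the chaperone H2-DM swaps the last fragment for a peptide. The transactivator Ciita does not bind DNA itself, and docks on factors that sit on an X box and a Y box upstream of these genes.

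Promoter stretches of 5 chromosome 17 members are shown, because the X and Y boxes are the shared element through which Ciita acts. RefSeq promoters on GRCm38.p6, from 250 bases before to 50 bases after a gene's start, were matched for 7 of the 10 members, and *H2-Ab1*, *Cd74* and *Ciita* were not matched. In the lines below, each 5′ to 3′ on the gene's own strand, capitals mark the 5 letters GNAAC at the start of an X box and the 7 letters TGATTGG of a Y box.
H2-Aa (chr17:34287857-34287914, minus strand): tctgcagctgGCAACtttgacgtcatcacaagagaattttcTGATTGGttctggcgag
H2-Eb1 (chr17:34305766-34305822, plus strand): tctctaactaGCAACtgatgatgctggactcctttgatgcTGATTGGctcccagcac
H2-DMb1 (chr17:34153087-34153144, plus strand): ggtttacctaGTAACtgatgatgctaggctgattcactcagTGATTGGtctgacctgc
H2-DMb2 (chr17:34145116-34145173, plus strand): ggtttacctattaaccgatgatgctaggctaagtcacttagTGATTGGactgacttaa
H2-Oa (chr17:34092293-34092350, plus strand): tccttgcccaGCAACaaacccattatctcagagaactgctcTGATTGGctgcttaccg

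The pair GNAAC followed, after 15 to 35 bases, by TGATTGG was found on either strand in 4 of the 8 member promoters and in 187 of 32851 promoters overall (0.569%). The gap was 26 bases in *H2-Aa*, *H2-DMb1* and *H2-Oa*, and 25 bases in *H2-Eb1*. TGATTGG alone was found in 5 of 8 member promoters against 7.82% of all promoters. The promoter of *H2-DMb2* holds TGATTGG without the paired GNAAC. TTC and GAA with 4 bases between them, a spacing bound by STAT6, were found in 0 of 8 member promoters and in 6.95% of all promoters. The letters CTTTGAT or CTTTGAA, read by the TCF/LEF factors of Wnt signaling, were found in the *H2-Eb1* promoter alone among the members and in 8.65% of all promoters. A pair of GAAA with 2 bases between them, as in an interferon response element, was found in the *Ctss* promoter alone among the members and in 3.44% of all. These are matches of letters in a window of 300 bases, in which the TCF/LEF letters of *H2-Eb1* fall inside the stretch printed above. Letter patterns were chosen with the promoters in view, so their shares are descriptions.

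Which of these genes responded to IL-4, to Wnt3a or to both is the question of the comparisons that follow. *Ciita*, *H2-Aa*, *H2-Ab1*, *H2-Eb1*, *Cd74*, *H2-DMa* and *H2-DMb1* rose with IL-4 and in both Wnt3a parts, and all 7 were higher in the remainder than with IL-4 alone or in the difference. Of these, all but *H2-DMa* were also higher in the difference than with IL-4 alone. *H2-Oa* was low and rose in the Wnt3a parts, *Ctss* was abundant throughout and moved little, and *H2-DMb2* was near 1 CPM in every group. In bulk RNA, a change in the number of cells of a type and a change in RNA per cell cannot be told apart.

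*Ciita*, the transactivator, was at 15.4, 13.2 and 12.7 CPM in the untreated libraries of mouse 1, 2 and 3, at 32.4, 28.2 and 24.0 CPM with IL-4, at 48.0, 68.5 and 54.8 CPM in the difference and at 87.1, 106 and 90.7 CPM in the remainder. The 4 groups did not overlap. Fitted with edgeR across 12421 genes, its level was 2.05-fold higher with IL-4 than in untreated cells (log2 fold change 1.03 ± 0.15 SE, adjusted p = 0.000923), 4.14-fold higher in the difference (2.05 ± 0.15) and 6.87-fold higher in the remainder (2.78 ± 0.15).

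The chain genes of the class II dimers started near each other and rose further. *H2-Ab1*, the H2-A beta chain, was at 105, 101 and 96.4 CPM in untreated cells, at 241, 259 and 198 CPM with IL-4, at 681, 979 and 829 CPM in the difference and at 1280.1, 1317 and 1010.1 CPM in the remainder. *H2-Aa*, the H2-A alpha chain, was at 115, 103 and 100.0 CPM in untreated cells, at 209, 262 and 190.5 CPM with IL-4, at 493, 714 and 625 CPM in the difference and at 992, 1219 and 876 CPM in the remainder. *H2-Eb1*, the H2-E beta chain that lacks its partner in this strain, was at 71.5, 70.4 and 66.5 CPM in untreated cells, at 127, 156 and 127 CPM with IL-4, at 331, 496 and 421 CPM in the difference and at 724, 777 and 610.4 CPM in the remainder. None of the groups overlapped for any of the 3 genes. In edgeR *H2-Ab1* had the largest log2 fold change of the 10 genes in both Wnt3a parts, 3.04 ± 0.15 (SE) in the difference (8.23-fold) and 3.57 ± 0.15 in the remainder (11.9-fold). The gene of the unpaired chain, *H2-Eb1*, changed by 2.58 ± 0.14 and 3.34 ± 0.15, next to 2.53 ± 0.16 and 3.28 ± 0.17 for *H2-Aa*.

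*Cd74*, the invariant chain, was at 411, 370.2 and 392 CPM in untreated cells, at 1406, 1326 and 1090.0 CPM with IL-4, at 1569, 2076 and 1890.4 CPM in the difference and at 3691, 3698 and 3102 CPM in the remainder. Again the groups did not overlap. With IL-4 it had the largest change of the 10 genes, a 3.26-fold rise (log2 fold change 1.70 ± 0.12 SE, adjusted p = 2.1e-06 in edgeR), and it rose 4.71-fold in the difference and 8.94-fold in the remainder. *Ctss*, the protease that trims Cd74, was at 5081, 5455 and 5601 CPM in untreated cells, at 7504, 6899 and 6481 CPM with IL-4, at 6733, 7788 and 8119 CPM in the difference and at 7407, 8434 and 7809.6 CPM in the remainder. All treated libraries lay above all untreated ones, while the 3 treated groups overlapped each other. The *Ctss* changes were small, 1.40-fold in the difference (adjusted p = 0.00241, or 0.0733 without mouse 3) and 1.47-fold in the remainder (0.000836). With IL-4 alone *Ctss* was at 1.29-fold with an adjusted p of 0.0571 in edgeR, and it passed in DESeq2 (0.00208).

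The peptide editors were split. *H2-DMa*, the alpha chain of H2-DM, was at 33.5, 35.1 and 31.9 CPM in untreated cells, at 78.4, 72.2 and 61.3 CPM with IL-4, at 75.5, 92.3 and 85.1 CPM in the difference and at 138, 124 and 127 CPM in the remainder. *H2-DMb1*, the main beta chain, was at 31.1, 33.5 and 27.3 CPM in untreated cells, at 54.8, 48.2 and 40.6 CPM with IL-4, at 61.1, 81.4 and 77.1 CPM in the difference and at 105, 103 and 94.6 CPM in the remainder. For *H2-DMa* the IL-4 libraries and the difference overlapped, and the groups were otherwise apart. *H2-DMb2*, a second beta chain gene, had 14 to 29 counts in all 12 libraries, with group means of 1.27 ± 0.179 CPM (SD, n = 3) in untreated cells, 1.35 ± 0.359 with IL-4, 1.35 ± 0.0327 in the difference and 1.64 ± 0.278 in the remainder. Its log2 fold change in the remainder was 0.36, with a 95% confidence interval from -0.18 to 0.91. Of the 50-base stretches in *H2-DMb2* transcripts, 21.2% are also in *H2-DMb1* transcripts, so reads can be lost or shared between them. *H2-Oa*, the alpha chain of the H2-DM inhibitor H2-O, had 9, 6 and 12 counts in untreated cells, 13, 11 and 12 with IL-4, 55, 47 and 30 in the difference and 66, 46 and 52 in the remainder. Its log2 fold change was 2.33 ± 0.29 (SE) in the difference and 2.66 ± 0.28 in the remainder, with adjusted p-values of 3.89e-05 and 8.18e-06 in edgeR, from a level under 1 CPM. *BC051537*, on the other strand, overlaps 22.8% of the *H2-Oa* exon bases, and *Brd2* overlaps 10.4% of those of *H2-DMa*, and the strand setting of the counting is not given in the sources used here.

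**Figure D1:**
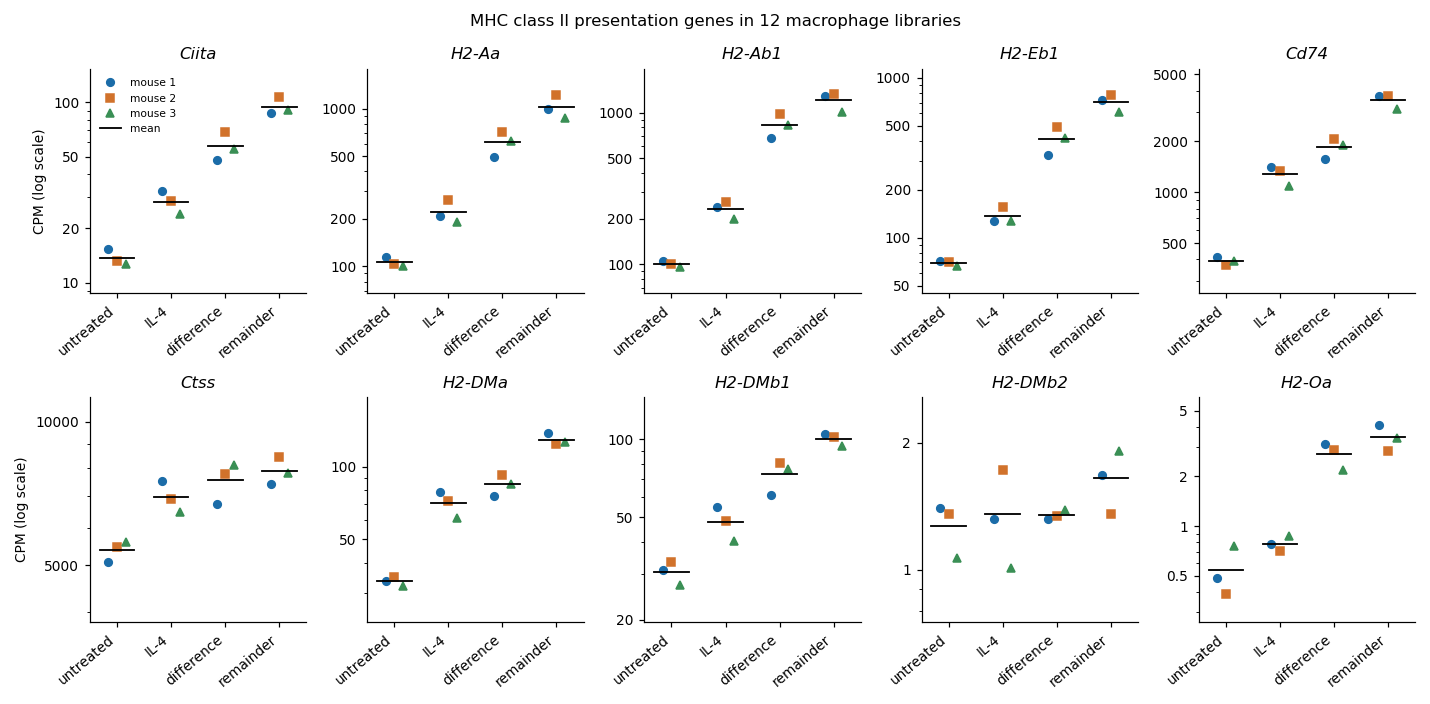
CPM on a log scale (vertical) in each of the 4 groups (horizontal) for the 10 genes, with 1 symbol per mouse and a bar at the mean of 3. *Ciita*, the chain genes and *Cd74* climb from untreated to remainder without overlap, *Ctss* moves little on its own scale, and *H2-DMb2* stays between 1.01 and 1.91 CPM.

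Counted over the 10 genes, 7 were higher with IL-4 than in untreated cells and 0 were lower, where 2.31% of all genes tested were called higher. The 3 not called were *H2-Oa*, *H2-DMb2* and *Ctss*. The median log2 fold change of the 10 genes was 1.01, against -0.003 over all genes tested. Without mouse 3, 3 of the 10 were called, namely *Cd74*, *H2-Ab1* and *H2-DMa*. Over all genes, 422 were called in this comparison, and leaving out a mouse or library gave 77 to 333.

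In the difference, 9 of the 10 were higher than in untreated cells (background 11.8% higher) and 0 lower, with a median log2 fold change of 2.14. In the remainder, 9 of the 10 were higher (background 13.6%) and 0 lower, with a median of 2.72. *H2-DMb2* was the gene not called in either. Both comparisons use the same untreated libraries. Against IL-4 alone, 7 of the 10 were higher in the difference (background 10%) and 8 in the remainder (background 10.6%). *H2-DMa* stood out among the rising genes for being at 1.19-fold in the difference relative to IL-4 alone, with an adjusted p of 0.0901 in edgeR (0.0146 without mouse 1), where *H2-Ab1* was 3.57-fold higher. Without mouse 3, the calls of *Cd74* and *H2-DMb1* in the difference against IL-4 were lost.

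**Figure D2:**
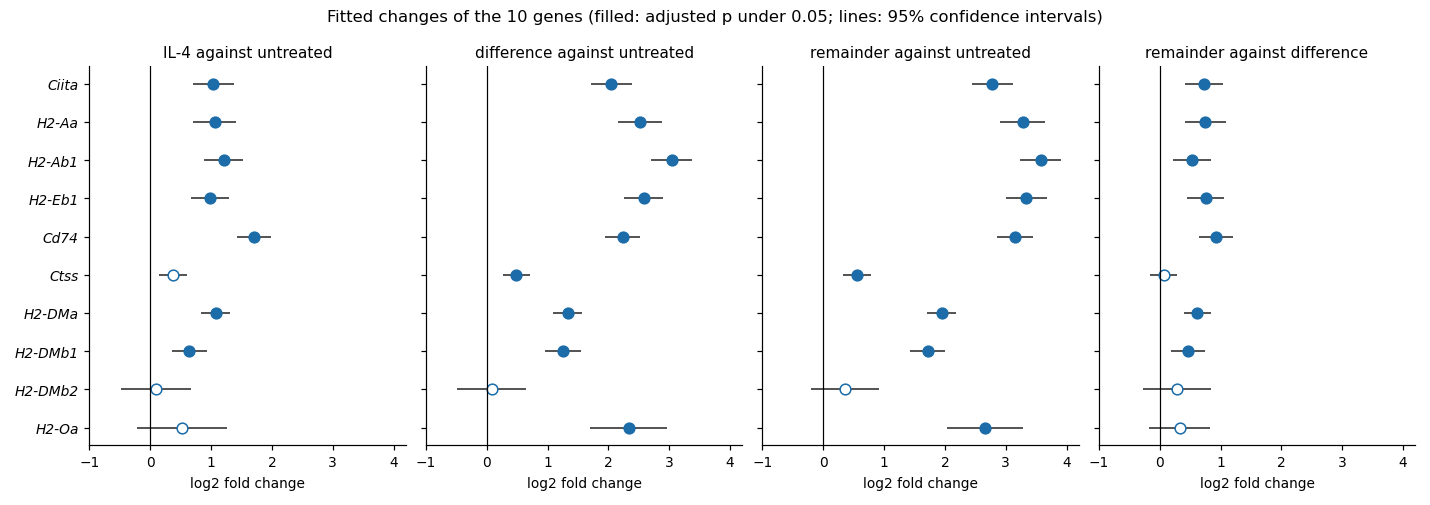
Log2 fold change (horizontal) of the 10 genes (vertical) in 4 comparisons, with 95% confidence intervals from edgeR, filled where the adjusted p was under 0.05. *H2-Ab1* has the largest change in both Wnt3a parts, *Cd74* the largest with IL-4, and *H2-DMb2* crosses 0 in all 4 panels.

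Between the Wnt3a parts, 7 of the 10 genes were higher in the remainder than in the difference and 0 were lower (background 2.87%). *Cd74* had the largest change, 1.895-fold (log2 fold change 0.92 ± 0.12 SE, adjusted p = 0.000377 in edgeR), and *Ciita*, *H2-Aa*, *H2-Eb1* and *H2-DMa* followed at 1.53-fold to 1.69-fold. *H2-Ab1* (1.45-fold, adjusted p = 0.0366) and *H2-DMb1* (1.38-fold, 0.0441) were near the threshold, and with the mouse as a replicate block *H2-DMb1* was at an adjusted p of 0.0561. The call of *H2-Ab1* was lost in 9 of 18 alternatives and that of *H2-DMb1* in 11 of 18. Every mouse showed the direction for each of the 7 genes, which were picked by this same comparison, so this is no separate support. The size differed between mice, as *Cd74* was 2.35, 1.78 and 1.64 times as high in the remainder as in the difference of mouse 1, 2 and 3, and *H2-Ab1* 1.88, 1.34 and 1.22 times. The difference library of mouse 1 was the lowest of its group for 9 of the 10 genes, and the IL-4 library of mouse 3 was the lowest of its group for 9 of the 10. Without mouse 1, 4 of the 10 genes were called, and without mouse 3 only *Cd74*. On the columns as labelled, which share reads, 0 of the 10 were called. Counts over all genes moved as well, from 652 to between 97 and 1188 with a mouse or library left out. In the other alternatives they were between 0 and 1454.

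For *Cd74* and *H2-Ab1*, the order of the gains depended on the scale. *Cd74* gained 883 ± 161 CPM (SD, n = 3) from untreated to IL-4 cells and 1652 ± 456 CPM from the difference to the remainder. In fold, the order was the opposite, 3.26 ± 0.425 without Wnt3a and 1.92 ± 0.377 between the Wnt3a parts, and the folds of the 3 mice did not overlap. *H2-Ab1* gained 132 ± 28.4 CPM and 372 ± 211 CPM, at 2.30 ± 0.257 and 1.48 ± 0.351 in fold. Not every gene showed this in every mouse. In mouse 1 the fold was 1.82 with IL-4 and 2.01 between the Wnt3a parts for *H2-Aa*, and 1.78 and 2.19 for *H2-Eb1*. In mouse 2 *H2-DMa* gained 37.2 CPM with IL-4 and 31.2 CPM between the Wnt3a parts. If the difference is taken as Wnt3a and the remainder as Wnt3a+IL4, the test of the IL-4 effect with against without Wnt3a called 0 of the 10 genes in edgeR (background 0.105% in either direction), with 4 of 10 at an unadjusted p under 0.05 and 2 of 10 called in DESeq2. Those 2 were *Cd74* (log2 -0.78 in both, adjusted p = 0.115 in edgeR and 0.00259 in DESeq2) and *H2-Ab1* (log2 -0.67, 0.193 and 0.0496). Shares of all genes at an unadjusted p under 0.05, or called in DESeq2, are not given here for this test. Whether 4 of 10 or 2 of 10 stands out from all genes therefore cannot be told. Under the reverse assignment, the genes called above would be lower with IL-4 than without it among Wnt3a-treated cells, and 7 of the 10 were called with an effect below that of IL-4 alone (background 4.42% lower).

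**Figure D3:**
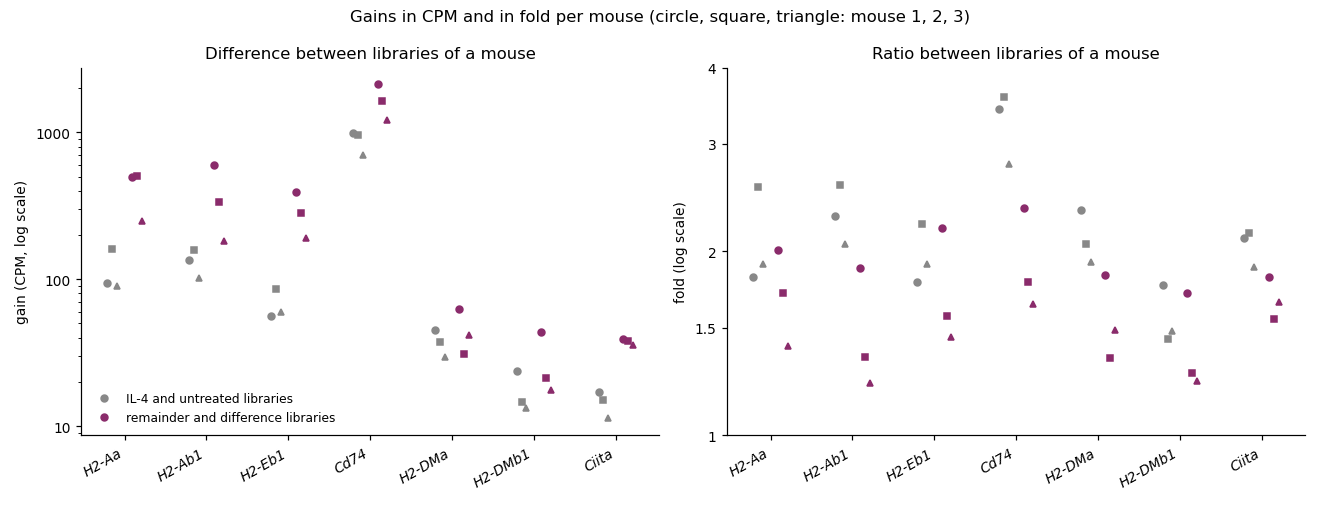
For 7 genes, the gain in CPM (left) and in fold (right), both on log scales, from untreated to IL-4 libraries (grey) and from difference to remainder libraries (purple), with 1 symbol per mouse. The gains of *Cd74* are larger in CPM and smaller in fold between the Wnt3a parts.

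The part of the library taken by the class II genes rose with their levels. The 9 genes other than *Ctss* held 0.0781 ± 0.0067% (SD, n = 3) of all counts in untreated cells, 0.202 ± 0.0193% with IL-4, 0.384 ± 0.0559% in the difference and 0.656 ± 0.0781% in the remainder. *Ctss* alone held 0.561 ± 0.013% in untreated cells and 0.765 ± 0.0677% in the remainder. Per exon length, *Ctss* was first in every group, at 3961 ± 197 RPKM in untreated cells and 5805 ± 381 in the remainder, and *Cd74* was second, at 233 ± 12.3 and 2083 ± 204 RPKM. The chain genes came next, at 27.9 ± 2.13 RPKM for *H2-Aa* to 39.3 ± 1.74 for *H2-Ab1* in untreated cells, and *H2-DMb1*, *H2-DMa* and *Ciita* followed, the last at 1.44 ± 0.148 RPKM. The order of the first 8 genes was the same in the 4 groups, but the ranges of *H2-Ab1* and *H2-Eb1* overlapped with IL-4 and in the remainder, and those of *H2-Eb1* and *H2-Aa* in all but the untreated group. *H2-Oa* and *H2-DMb2* were last, and *H2-Oa* was above *H2-DMb2* only in the Wnt3a parts.

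Because the genes rose by different amounts, their proportions changed, and these ratios do not depend on library scaling. The RPKM ratio of *Cd74* to *H2-Ab1* was 5.97, 5.61 and 6.23 in untreated cells of mouse 1, 2 and 3, 8.92, 7.83 and 8.42 with IL-4, 3.52, 3.24 and 3.49 in the difference and 4.41, 4.30 and 4.70 in the remainder. It was thus highest with IL-4 alone and lowest in the difference, and no groups overlapped. The ratio of *H2-DMa* to *H2-Ab1* was 0.247 ± 0.0108 (SD, n = 3) in untreated cells, 0.227 ± 0.0177 with IL-4, 0.0764 ± 0.00618 in the difference and 0.0812 ± 0.0118 in the remainder, so that both Wnt3a parts lay below the other groups and overlapped each other. *Ciita* relative to *H2-Ab1* followed the same order, from 0.0367 ± 0.00227 in untreated cells to 0.0185 ± 0.000643 in the difference. *H2-DMa* relative to *H2-DMb1* was 0.535 ± 0.0307 in untreated cells and 0.722 ± 0.0212 with IL-4. In an exact two-sided permutation test over libraries, the smallest p that 3 against 3 can give is 0.1, which all these non-overlapping comparisons reached. With 42 comparisons of 7 ratios computed, the adjusted value is 0.131, so none passed 0.05. The ratios were chosen after the levels were seen.

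**Figure D4:**
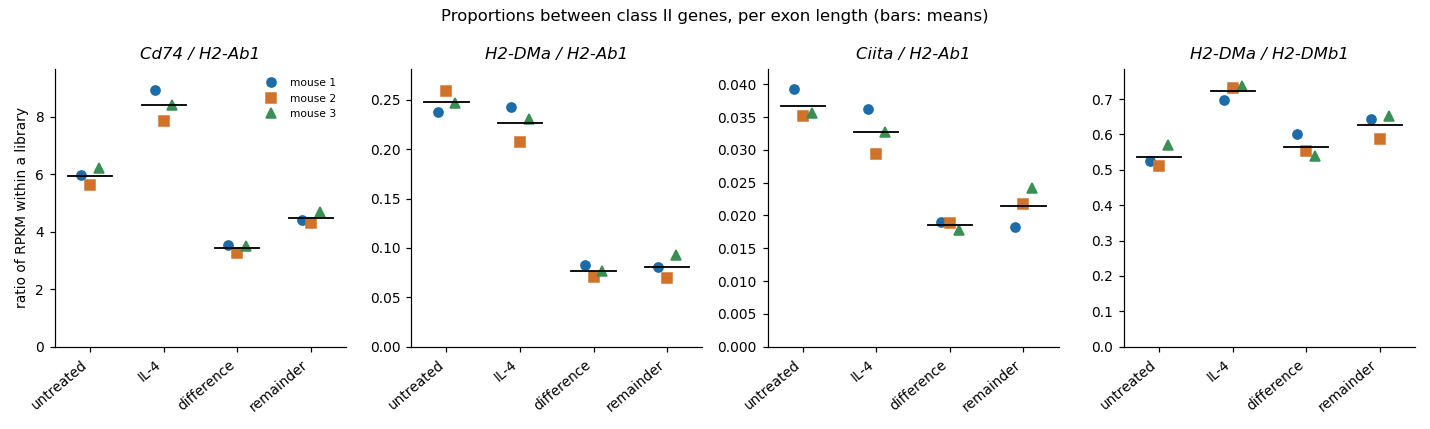
Ratio of RPKM between 2 genes within each library (vertical, from 0) in the 4 groups, with 1 symbol per mouse and a bar at the mean. *Cd74* relative to *H2-Ab1* is highest with IL-4 and lowest in the difference, and *H2-DMa* and *Ciita* relative to *H2-Ab1* are lower in both Wnt3a parts than in the other groups.

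Genes around the pathway were counted as well. Of 11 genes of the factors that bind or regulate class II promoters and *Ciita*, 0 were called with IL-4 in edgeR (3.4% of all genes). Of the 11, 2 were at an unadjusted p under 0.05 and 1 was called in DESeq2. Shares of all genes for these 2 counts are not given here. In the difference 2 of 11 rose, among them *Irf1*, an interferon regulatory factor (log2 fold change 0.38 ± 0.10 SE), and 1 fell, the Y box factor subunit *Nfya* (-0.44 ± 0.08), beside the shares of all genes of 11.8% higher and 11.4% lower. In the remainder 2 of 11 rose (13.6% of all genes), among them *Irf1* (0.64 ± 0.10), and 0 fell (11.7% of all genes). The median log2 fold change of the 11 was -0.09 in the difference and -0.18 in the remainder. The call for *Irf1* in the difference was lost without mouse 2 or mouse 3. *Rfx5*, *Rfxap* and *Rfxank*, which encode the X box complex, were not called in any of these 3 comparisons.

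Of 10 genes of endosomal processing, 1 rose with IL-4 (2.31% of all genes). It was *Ctsl* (cathepsin L, log2 fold change 0.60 ± 0.10 SE), a call lost without mouse 2 or mouse 3. In the difference 5 of 10 rose and 2 fell, where 11.8% of all genes tested were called higher and 11.4% lower, and in the remainder 5 of 10 rose and 0 fell, against 13.6% and 11.7%. The median log2 fold change of the 10 was 0.34 in both parts, against -0.01 and -0.02 over all genes. The largest rises in both were *Ctsk* (cathepsin K, 1.36 ± 0.25 and 1.66 ± 0.25), *Ifi30* (the thiol reductase GILT, 1.06 ± 0.11 and 1.39 ± 0.11) and *Ctsz* (cathepsin Z, 0.74 ± 0.12 and 1.10 ± 0.12). *Marchf1*, a ubiquitin ligase that marks class II for degradation, rose in the difference (0.64 ± 0.18, adjusted p = 0.017 in edgeR) and was lower in the remainder than in the difference (-0.83 ± 0.18, adjusted p = 0.0133). Its means were 36.0 ± 6.83 CPM (SD, n = 3) in untreated cells, 32.9 ± 4.77 with IL-4, 56.0 ± 2.30 in the difference and 31.5 ± 8.82 in the remainder. The rise of *Marchf1* in the difference was lost without mouse 1 or mouse 3, and so was its lower level in the remainder. Among other class II genes, *H2-Eb2* had 0, 1 and 0 counts in untreated cells. It had 12, 12 and 11 in the difference and 24, 14 and 8 in the remainder. *H2-Ob*, the beta chain of H2-O, rose in both parts (0.86 ± 0.28 and 0.93 ± 0.28), a call that DESeq2 did not make in either. With IL-4 *H2-Ob* had 8, 8 and 6 counts, against 18, 15 and 16 in untreated cells, and was not called in edgeR. *H2-Ea*, the defective alpha chain gene of this strain, had at most 1 count in any library.

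**Figure D5:**
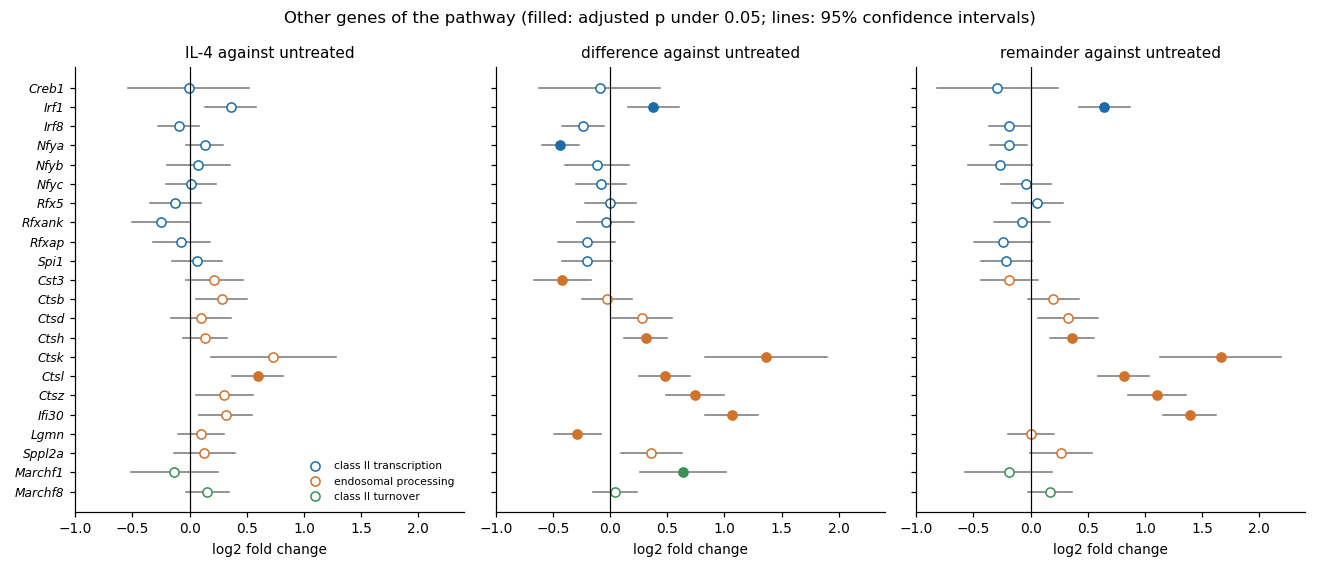
Log2 fold change (horizontal) of 22 other genes of the pathway (vertical) against untreated cells, coloured by list, with 95% confidence intervals and filled where the adjusted p was under 0.05. *Ctsk*, *Ifi30* and *Ctsz* rise in both Wnt3a parts, and most class II transcription factors lie near 0.

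As a check of the cells, the macrophage genes *Csf1r* (4681 to 5609 CPM, group means) and *Adgre1* (2296 to 3030 CPM) were high in all groups. They belong to a list of 8 macrophage genes, and others of that list moved. Against untreated cells, 4 of the 8 were higher in the difference (11.8% of all genes) and 2 in the remainder (13.6%). With IL-4, 1 was lower (1.09%), and 2 were lower in the remainder than in the difference (2.38%). Other cell types also express class II. The B cell genes *Cd79a*, *Ms4a1*, *Pax5* and *Ebf1* had at most 5 counts in any library, and the summed level of 8 B cell genes was 94.0 to 104 CPM in untreated libraries, 52.1 to 66.1 with IL-4, 26.4 to 36.2 in the difference and 29.2 to 33.8 in the remainder. Of the 8 genes, 5 had at most 5 counts in every library, and 3 with more counts were tested. Of these 3, *Ighm* was called lower in the remainder (11.7% of all genes), and 2 were not called. With IL-4 1 of the 3 was called lower too (1.09% of all genes), as was 1 in the difference (11.4%). The mean of *Ighm* was 77.1 CPM in untreated cells, 37.2 with IL-4, 8.17 in the difference and 5.06 in the remainder. The dendritic cell genes *Flt3* and *Clec9a* had at most 5 counts in any library, while the summed level of 8 dendritic cell genes was 3.01 to 3.65 CPM in untreated cells, 3.58 to 4.55 with IL-4, 5.89 to 10.7 in the difference and 11.4 to 23.8 in the remainder. Of that list 4 genes were tested. *Ccr7*, *Kmo* and *Zbtb46* were higher in the remainder than in untreated cells (13.6% of all genes) and *Cd209a* was lower (11.7%). *Ccr7* had 2 to 6 counts in untreated cells, 31 to 113 in the difference and 110 to 319 in the remainder, whereas *Cd209a* had 11 to 24, 0 and 0 to 3. The part of these genes' cells in the class II levels was not tested. The summed levels were at most 2.04 CPM for 5 T cell genes and 5.74 to 30.1 CPM for 6 stromal genes. The 1 T cell gene tested was called higher than in untreated cells in the difference (11.8% of all genes) and in the remainder (13.6%). Of 3 stromal genes tested, 1 was called higher in the difference and 0 in the remainder. For 8 neutrophil genes the summed levels were 39.3 to 49.6 CPM in untreated cells and 51.5 to 61.3 with IL-4. In the difference they were 28.9 to 45.8 CPM and in the remainder 26.2 to 30.4. Of 5 neutrophil genes tested, 3 were lower in the remainder than in untreated cells (11.7% of all genes) and 0 higher. Of 13 genes known to respond to IL-4, 10 were higher in the remainder than in the difference (2.87% of all genes) and 0 lower (2.38%). Among them was *Arg1*, with 0, 1 and 0 counts in the difference and 402, 97 and 114 in the remainder. *Retnla*, also of that list, had 535 to 781 counts with IL-4 alone and at most 1 count in any library of either Wnt3a part.

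Outside the pathway, the genes whose levels over the 12 libraries were most like the mean profile of *H2-Aa*, *H2-Ab1*, *H2-Eb1* and *Cd74* were, among 9286 genes averaging 5 CPM or more, *Gpc1* (Pearson's r 0.989), *Slamf8* (0.988), *C3* (0.984), *Fcgr2b* (0.979) and *Cst7* (0.978). The points share libraries and 4 group means, so the values are descriptions. *C3*, complement component 3, went from 568 ± 108 CPM (SD, n = 3) in untreated cells to 1090.0 ± 168 with IL-4, 3835 ± 468 in the difference and 6196 ± 243 in the remainder. *Cst7*, an inhibitor of endosomal cathepsins, went from 2.07 ± 0.185 to 4.45 ± 0.601, 24.7 ± 0.978 and 68.5 ± 3.87 CPM. Among the members themselves, *Ciita* had an r of 0.995 with the same profile, *Ctss* 0.896 and *H2-DMb2* 0.492.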

How the data were processed

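RNA-seq of 12 BMDM samples (4 groups of 3 mice) was used. The authors trimmed the reads, aligned them to mm10 with STAR and deposited raw counts per gene from HTSeq-count, without normalization. The submitters' processing notes name FastQC 0.11.7, Trimmomatic 0.36, STAR 2.6.0, SAMtools 1.9, HTSeq 0.11.1 and DESeq2 1.24.0. UCSC genes are named in the study's methods, but the rows carry Ensembl identifiers, and 99.0% of them were given a symbol. The strand setting is not given in the sources used here.

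The difference and remainder were solved from the deposited counts. A gene was kept if 3 libraries or more had 10 counts or more, which left 12421 genes. The quasi-likelihood test of edgeR 4.0.16 (R 4.3.3) was applied after TMM scaling to the 12 libraries together, with no mouse term and calls at a Benjamini-Hochberg adjusted p under 0.05. RPKM used GENCODE vM21 exon lengths, which count every annotated transcript. Alternatives were DESeq2 1.42.0, other scalings and filters, the mouse as replicate block, an adjusted p under 0.01, the columns as labelled, and each mouse or library left out. The test was also run on simulated data.

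The labels pair the samples, since each mouse gave 1 sample to each group. Deviations from group means correlated between -0.417 and 0.454 in the 18 same-mouse pairs, and 6 were over 0.1.

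The 10 members, the pathway lists and the marker lists were chosen with earlier results of these data known. All members are named, and of each other list up to 3 called genes with the largest absolute log2 fold change in a comparison. *Rfx5*, *Rfxap*, *Rfxank*, *H2-Ea* and the genes in the check of cell types were named after their values were seen. The other data sets of the study were not analysed here. Values of 2 genes of the pathway and marker lists are not reported here.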

Additional observations from a re-analysis of the deposited data

Results flagged for a closer look

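With the difference taken as Wnt3a+IL4 and the remainder as Wnt3a, 7 of the 10 genes were called lower (4.42% of all genes). For these 7, the effect of IL-4 with Wnt3a was below its effect without Wnt3a. By the edgeR test of the difference itself, the log2 values were -2.63 for *Cd74*, -1.81 for *H2-Aa*, -1.76 for *Ciita*, -1.74 for *H2-Ab1*, -1.74 for *H2-Eb1*, -1.70 for *H2-DMa* and -1.10 for *H2-DMb1*, with adjusted p-values from 3.05e-07 for *Cd74* to 0.00107 for *H2-DMb1*. All 7 remained called under each alternative tried, where *Cd74* ranged from -2.81 to -1.85. The values follow from the direction of the remainder against the difference and from the rise with IL-4 alone. In the same test, 12 of 13 genes known to respond to IL-4 were called lower and 0 higher. Under the first assignment edgeR called 0 of the 10 genes. Which assignment holds is not given by the labels.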

How the results depend on the processing

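Over all alternatives, 1467 of 1540 values of single members kept their direction and their side of the threshold. Leaving out mice or libraries gave 3 to 7 members called for IL-4 against untreated (3 without mouse 3) and 1 to 7 for remainder against difference (1 without mouse 3, 4 without mouse 1). The columns as labelled gave 0 members for remainder against difference and 6 for the first assignment's interaction, where DESeq2 gave 2 and all genes with at least 1 count gave 2. These columns share reads by construction. The mouse as replicate block changed 1 call among the members, that of *H2-DMb1* in remainder against difference (log2 0.46, adjusted p = 0.0561), and no other. Signs turned where values were near 0, and none was called. For *H2-DMb2*, leaving out mice or libraries gave log2 values from -0.132 to 0.230 for IL-4 against untreated (-0.0910 without mouse 2, -0.0306 without untreated mouse 3, -0.132 without IL-4 mouse 2), from -0.0445 to 0.171 for the difference against untreated (-0.0445 without mouse 3, -0.0362 without untreated mouse 3, and -0.0126 with total counts alone) and from -0.174 to 0.208 for the difference against IL-4 (0.208 without mouse 2, 0.205 without IL-4 mouse 2, 0.00807 without difference mouse 1). The last was 0.000314 in DESeq2, 0.00766 with all genes with at least 1 count and 0.0862 on the columns as labelled, where its first-assignment interaction was -0.0381. *Ctss* in remainder against difference ranged from -0.00946 without difference mouse 1 to 0.126, and the *H2-Oa* first-assignment interaction from -0.530 to 0.0888 without mouse 2. Counts over all genes moved more: from 422 to between 77 and 812 for IL-4 against untreated, from 2884 to between 1220 and 4063 for the difference, from 3137 to between 1375 and 3915 for the remainder, from 652 to between 0 and 1454 between the parts, from 2519 to between 1208 and 3320 and from 2521 to between 1043 and 3211 for the parts against IL-4, and from 13 to between 0 and 575 and from 910 to between 265 and 1505 for the interactions. With 6 to 29 counts in *H2-DMb2* and in untreated *H2-Oa*, depth limits what can be seen there.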
